A study of Mus musculus with 8 samples.

Results

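Accessible regions within the *Zfp* zinc-finger genes of mouse pachytene spermatocytes were described from 2 ATAC-seq peak lists, 1 for *Arid1a* WT and 1 for *Arid1a* cKO. A gene was included when it was protein-coding, lay on chromosomes 1 to 19 and had a GENCODE symbol of Zfp followed by a digit; 1 gene was left out. That gave 384 genes of 20807 autosomal protein-coding genes. A peak belonged to them when it touched the gene body or the 1000 bp upstream of it. The WT list held 327 such peaks of 19309 in all, and the cKO list held 423 of 30244. Of these, 5 WT and 6 cKO peaks lay in more than 1 *Zfp* gene.

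ATAC-seq, in which a transposase cuts open chromatin and inserts sequencing adapters, was carried out on 4 libraries of each genotype. All animals carried floxed *Arid1a*, whose protein binds DNA within BAF, a remodeler of nucleosomes. WT males were Arid1a fl/fl or fl/+ and had no Cre. The cKO males were Arid1a fl/fl with a Stra8-Cre transgene, which is active from spermatogonia onward in male germ cells and, in the study's own account, left part of the cells with ARID1A. Cells of several adult males were pooled and enriched by sedimentation, so each fraction holds some other testis cells.

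Zinc fingers of the C2H2 type are short loops in which a pair of cysteines and a pair of histidines hold a zinc ion, and arrays of them read DNA sequence. The largest family in mammals joins such an array to a KRAB domain, which recruits the corepressor TRIM28 (KAP1) and heterochromatin enzymes, and many of its members silence retroelements. These genes multiplied by local duplication, so they stand in clusters of near copies, and the whole finger array is usually encoded in the last exon. That exon is long, repetitive and, in several tissues, known to carry heterochromatin marks. The prefix *Zfp* is only a naming habit: it also covers C2H2 regulators without a KRAB domain and the CCCH-type RNA-binding proteins of the *Zfp36* family, while many mouse KRAB genes have other names.

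A search of the translated reference found a median of 10 C2H2 fingers per gene, with a maximum of 36 at *Zfp142*, and no finger of the searched spacing in 14 genes. All fingers lay in the last exon in 293 of the 384 genes. A KRAB pattern, a phenylalanine followed by serine or threonine, any residue, 2 glutamates and a tryptophan, was found in 161 genes (41.9%), and it misses KRAB boxes that diverge from it. By distance, 235 genes (61.2%) fell into 32 clusters of at least 3 *Zfp* genes with gaps of at most 500 kb.

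The sequences below carry the descriptions that follow. Promoter stretches come from the RefSeq table of GRCm38.p6, the assembly of mm10. They are written 5′ to 3′ on the strand of the gene, and were limited to bases in the cKO peak and in no annotated exon. Base −1 is the last base before the RefSeq start. Capitals mark letters of 5 short motifs that were searched on both strands (CCAAT, CCGGAAGT, AAGATGGC, TGACGTCA and TGCGCATGC). The first 3 lines are promoters with a peak in the cKO list alone, and the next 2 led their clusters and were open in both lists.
Zfp42, chr8:43307010-43307132, minus strand, bases −123 to −1: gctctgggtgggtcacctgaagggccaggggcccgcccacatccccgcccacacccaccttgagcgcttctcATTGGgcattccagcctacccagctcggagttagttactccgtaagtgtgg
Zfp709, chr8:71881918-71882018, plus strand, bases −150 to −50: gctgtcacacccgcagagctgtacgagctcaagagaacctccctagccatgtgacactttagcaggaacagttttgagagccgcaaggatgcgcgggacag
Zfp605, chr5:110110001-110110027, plus strand, bases −91 to −65: gtggaggggtgggtCCGGAAGTgaagc
Zfp868, chr8:69625558-69625698, minus strand, bases −150 to −10: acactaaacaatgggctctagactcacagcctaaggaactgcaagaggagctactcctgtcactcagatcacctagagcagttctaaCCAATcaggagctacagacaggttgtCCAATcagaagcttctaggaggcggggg
Zfp787, chr7:6155998-6156115, minus strand, bases −150 to −33: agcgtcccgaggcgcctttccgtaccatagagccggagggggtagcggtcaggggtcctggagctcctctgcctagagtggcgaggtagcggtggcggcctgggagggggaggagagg

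A second pair shows how alike promoters within a cluster can be. The promoters of *Zfp980* and *Zfp979*, both in the chromosome 4 cluster, had the same base at 126 of 138 positions (91.3%) compared without gaps, and capitals mark the other 12. They were the closest pair among the 12 genes of that cluster with a promoter in the table, and neither list had a peak at either gene.
Zfp980, chr4:145670547-145670684, plus strand, bases −150 to −13: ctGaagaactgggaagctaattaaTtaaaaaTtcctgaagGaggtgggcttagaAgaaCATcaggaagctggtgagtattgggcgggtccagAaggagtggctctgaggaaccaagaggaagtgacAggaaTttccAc
Zfp979, chr4:147642521-147642658, minus strand, bases −150 to −13: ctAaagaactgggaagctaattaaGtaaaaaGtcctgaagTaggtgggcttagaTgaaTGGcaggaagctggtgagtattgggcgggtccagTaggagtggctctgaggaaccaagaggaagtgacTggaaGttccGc

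For last exons, 1 finger unit under a cKO peak is shown for a gene whose peak was in both lists (*Zfp771*) and a gene whose peak was gained (*Zfp689*). Each line is 84 coding bases, or 28 residues, from the first cysteine to the last base before the first cysteine of the next finger. Capitals mark the codons of the zinc-binding cysteines and histidines. The *Zfp771* peak covered 8 stretches of this length that begin with a finger and the *Zfp689* peak 5, whether or not another finger follows.
Zfp771, chr7:127253856-127253939, plus strand: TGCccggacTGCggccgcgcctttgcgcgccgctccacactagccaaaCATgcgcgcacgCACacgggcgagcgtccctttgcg
Zfp689, chr7:127444419-127444502, minus strand: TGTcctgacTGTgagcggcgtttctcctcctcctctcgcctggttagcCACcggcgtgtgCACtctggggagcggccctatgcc

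Each genotype was given as 1 list, in which the replicates had been intersected, which leaves no replicate spread and allows no test between genotypes. Shares carry 95% Wilson intervals, which cover counting error only, and stand beside the same share over all autosomal protein-coding genes. Fold enrichment is the authors' ratio of summit pileup to background, which 1 library supplied for each list. That background was 4.33 fragments per base for WT and 5.11 for cKO, and summits held at least 13 and 14 fragments, respectively. Folds were therefore compared within a list. Most peaks stand on several rows of a list, with the same fold and q but different ends, and were merged to 1. What a row stands for is not given in the sources used here, and the number of rows is given below as a description. All 10 pachytene markers examined had a promoter peak in both lists. Spermatogonial markers had one at 0 of 5 genes in WT and 2 of 5 in cKO (*Kit* and *Zbtb16*), Sertoli markers at 2 of 4 in each, with *Wt1* lacking one in WT, *Gata4* in cKO and *Sox9* in both, Leydig markers at 1 of 4 in both and macrophage markers at 0 and 1 of 3. The part of other cells in the results was not tested.

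To ask where in *Zfp* genes chromatin was open, peaks were assigned to the promoter (1000 bp before to 100 bp after any annotated start of the gene), then to the last exon of the longest coding transcript, and otherwise to other positions. Open chromatin of *Zfp* genes lay mostly at promoters. In the WT list, 272 of 327 *Zfp* peaks were promoter peaks (83.2%, 78.7 to 86.8), 17 lay in last exons (5.2%, 3.27 to 8.17) and 38 elsewhere (11.6%, 8.58 to 15.5). Over all autosomal protein-coding genes, the promoter share of WT peaks was 72.6% (71.9 to 73.3) and the share at other positions 22.4% (21.7 to 23.1). In the cKO list, the *Zfp* counts were 326 promoter peaks (77.1%, 72.8 to 80.8), 32 last-exon peaks (7.57%, 5.41 to 10.5) and 65 elsewhere (15.4%, 12.2 to 19.1), and the promoter share over all genes was 60.6% (59.9 to 61.3). In both lists the *Zfp* interval lay above the value of all genes for promoters and under it for other positions.

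Counted by gene, promoter peaks were present at 263 *Zfp* genes in WT (68.5%, 63.7 to 72.9) and at 304 in cKO (79.2%, 74.8 to 82.9), against 51.1% and 57.6% of all autosomal protein-coding genes. Both lists had one at 260 genes, the cKO list alone at 44 and the WT list alone at 3, which left 77 genes without. The 44 genes are 11.5% of the family (8.65 to 15.0), and 6.74% of all genes had a promoter peak in the cKO list alone. No peak of either list lay anywhere in 67 of the 384 genes (17.4%, 14 to 21.6).

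A cKO peak was called gained when it shared no base with a WT peak, and a WT peak lost when it shared none with a cKO peak. Of the *Zfp* peaks, 112 of 423 were gained (26.5%, 22.5 to 30.9) and 9 of 327 were lost (2.75%, 1.45 to 5.15). Over all autosomal protein-coding genes, 35.9% of cKO peaks were gained and 3.3% of WT peaks lost. At promoters the gained share was 16.6% (54 of 326, 12.9 to 21), and over all genes it was 16.9%. In last exons it was 59.4% (19 of 32, 42.3 to 74.5), and over all genes it was also 59.4%. At other positions it was 60% (39 of 65, 48 to 71.0), and over all genes it was 66.4%. Position by position, the value of all genes lay inside the *Zfp* interval. These shares change with the setting: with the cKO list shortened by −log10 q to the length of the WT list, the *Zfp* shares were 9.18% at promoters, 25% in last exons and 32.4% at other positions, and by peak centre the last was 38.1%. The shares of all genes were not computed at those settings. The lower gained share of *Zfp* genes over all positions stood beside their higher share of promoter peaks.

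**Figure D1:**
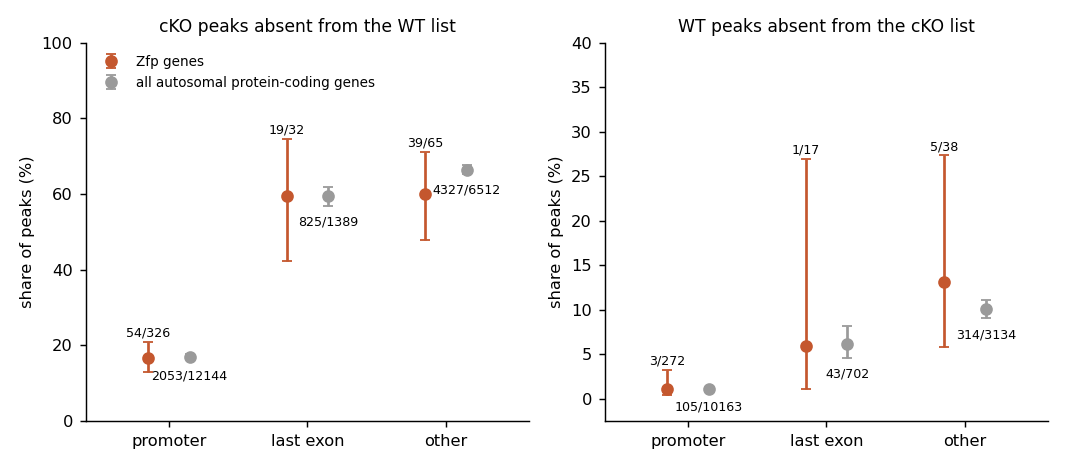
Share of peaks (%) in one list that share no base with the other, by position in the gene; points are shares, bars are 95% Wilson intervals and the fractions are counts. The left panel shows 16.6%, 59.4% and 60% of *Zfp* peaks gained at promoters, last exons and other positions, with the grey points of all autosomal protein-coding genes inside each interval; the right panel shows the lost shares on a shorter axis.

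Gained peaks were weak. The median −log10 q of gained *Zfp* promoter peaks was 6.39 and that of *Zfp* promoter peaks in both lists was 48.6. In last exons the medians were 3.68 and 20.1, and at other positions 4.24 and 11.0. Among *Zfp* promoter peaks with a −log10 q of 10 or more, 15 of 274 were gained (5.47%, 3.35 to 8.83), while 18 of 22 were gained under a −log10 q of 5 (81.8%, 61.5 to 92.7). Over all genes these shares were 3.85% and 86.8%. In last exons with a −log10 q of 10 or more, 1 of 13 *Zfp* peaks was gained, and under 5 all 13 were. Over all genes the last-exon shares were 11.7% and 89.4%.

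**Figure D2:**
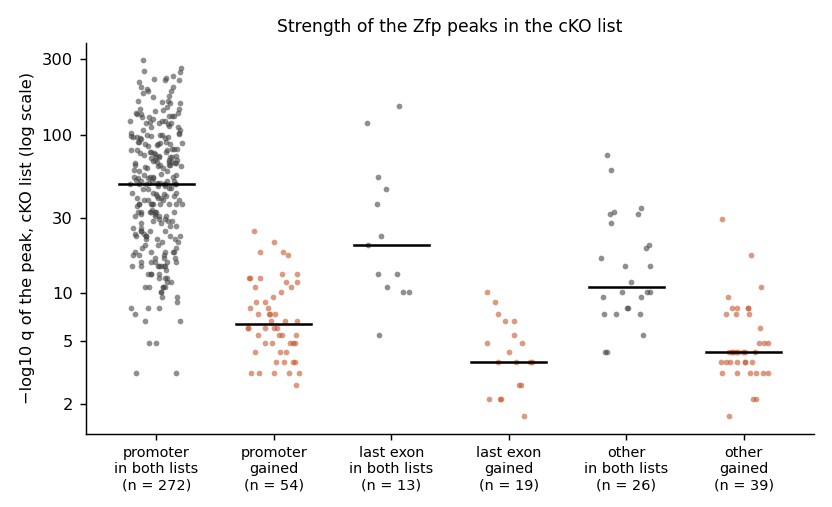
−log10 q (log axis) of each of the 423 *Zfp* peaks in the cKO list, split by position and by whether the peak was also in the WT list; each point is a peak and black lines are medians. Gained peaks sit low at each position, with medians of 6.39, 3.68 and 4.24, although 15 gained promoter peaks reach 10 or more.

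The promoters with the highest fold in the WT list belonged to regulators without the KRAB pattern. *Zfp768* led with a fold of 23.3 in WT and 34.9 in cKO (WT peak chr7:127344757-127346971, 10 fingers). *Zfp687*, which encodes a partner of the chromatin reader ZMYND8, had 22.3 in WT and 36.0 in cKO (chr3:95014484-95016926), and *Zfp438* had 22.1 and 39.1, the highest *Zfp* fold of the cKO list. *Zfp513*, *Zfp574*, *Zfp91*, *Zfp142* and *Zfp384* followed, from 21.2 down to 18.4 in WT and between 26.8 and 32.6 in cKO. *Zfp91* encodes a protein with both C2H2 fingers and ubiquitin ligase activity, and its promoter peak also covered a start of *Lpxn*. All 8 peaks were in both lists and on 3 rows.

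Promoter peaks were wider in the cKO list. For 259 *Zfp* genes with matched promoter peaks, the median width was 856 bp in WT and 1318 bp in cKO, and 249 were wider in cKO (96.1%, 93.0 to 97.9). The median ratio of widths was 1.44. Over 10436 matched autosomal protein-coding genes it was also 1.44, and 95.4% were wider. Ranked within their list, matched *Zfp* promoter peaks had a median percentile of 48.7 among all promoter peaks in WT and 54.6 in cKO, while the medians of all matched genes were 56.4 and 64.

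**Figure D3:**
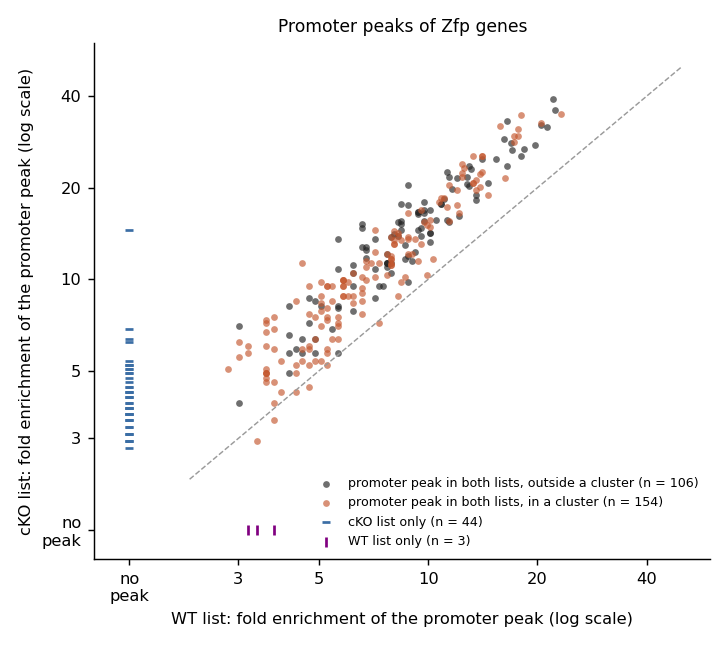
Fold enrichment of the strongest promoter peak of each *Zfp* gene in the WT list (x axis) and in the cKO list (y axis), both on log axes; dots are genes with a promoter peak in both lists, in orange for the 154 in a cluster and black for the 106 outside, and the dashed line marks equal folds. The 44 genes with a promoter peak in the cKO list alone form the column at left and the 3 with one in the WT list alone stand at the bottom; folds of the lists come from different libraries, so distance from the line is not a measured change.

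The 54 gained promoter peaks were of 2 kinds. At 41 the gene had no promoter peak in WT, and the other 13 lay at another start of a gene whose promoter was already open. The strongest of all was of the second kind. Its centre lay 65 bp from an internal start of *Zfp148*, a regulator that binds GC-rich promoters, with a fold of 7.53, 45 fragments at the summit and a −log10 q of 24.7 (chr16:33400201-33400559). *Zfp148* already had a peak at its first promoter, with a fold of 7.32 in WT and 9.49 in cKO. *Zfp563* (chr17:33092417-33093037, −log10 q of 18.3) and *Zfp36* (chr7:28377190-28379583, 13.3) were of the same kind. *Zfp36* encodes tristetraprolin, which binds AU-rich mRNAs and speeds their decay, and its gained peak also covered a start of the annotated gene *Gm44710*.

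Of gained promoter peaks at genes with no promoter peak in WT, the highest −log10 q was that of *Zfp383*, a KRAB gene with 11 fingers, at 21 (fold of 6.87, chr7:29908138-29908748). *Zfp169* followed with 18.3 (fold of 6.38, chr13:48512842-48513540), and its peak also covered a start of *A830005F24Rik*. In WT the body of this gene held a WT peak with a −log10 q of 17.7 and its last exon another with a fold of 5.07. *Zfp709*, a KRAB gene with 18 fingers, had a −log10 q of 17.5 (fold of 6.22, chr8:71881721-71882319), centred 1 bp from its start.

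*Zfp42* encodes REX1, a marker of naive pluripotent stem cells. Its promoter had no WT peak and a cKO peak with a fold of 5.40, 32 fragments at the summit and a −log10 q of 13.3, on 3 rows (chr8:43305668-43307132). The stretch printed above contains 1 CCAAT box, read as ATTGG on the strand of the gene. *Zfp605*, with the ETS-type letters CCGGAAGT in the printed stretch, and the neighbours *Zfp65* and *Zfp493* on chromosome 13 each had a fold of 5.24 and a −log10 q of 12.5. Folds of 41 of the 44 genes came from gained peaks. At the other 3, *Zfp36l1*, *Zfp764* and *Zfp804a*, the cKO promoter peak overlapped a WT peak that did not reach the promoter window of a GENCODE start. At *Zfp804a* that WT peak, with a −log10 q of 2.15, does cover the RefSeq start of the gene, so by RefSeq its promoter had a peak in both lists. The highest fold of the 44, 14.6 at *Zfp36l1*, another mRNA decay factor, is one of these, so that peak was not gained.

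The searched motifs were described over the 318 *Zfp* genes with a RefSeq promoter (250 bases before to 50 after the start). CCAAT, the box bound by NF-Y, was in 48.7% (43.3 to 54.2), and in 38.4% of all 15703 autosomal protein-coding promoters matched. It was in 22 of 37 matched promoters with a peak in the cKO list alone (59.5%, 43.5 to 73.7), in 45.7% of those open in both lists (39.2 to 52.3) and in 54.2% of those without a peak (41.7 to 66.3). CCGGAAGT, an ETS site, was in 9.75% of *Zfp* promoters (6.95 to 13.5) and 5.68% of all, and AAGATGGC, a YY1 site, in 5.35% (3.36 to 8.39) and 3.25%. TGACGTCA, the cyclic AMP response element, was in 3.46% (1.94 to 6.09) and 2.48%, and TGCGCATGC, an NRF1 site, in 3.14% (1.72 to 5.69) and 2.13%. All 10 *Zfp* promoters with the NRF1 letters had a peak in both lists, as did 219 of the 318 matched *Zfp* promoters. The *Zfp* intervals for CCAAT, ETS and YY1 lay above the share of all promoters. A match is a description of letters and not a bound site.

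Over all *Zfp* genes, promoter peaks were less frequent in genes with the KRAB pattern than in genes without it. The latter can still include KRAB genes that the pattern misses. Genes with the KRAB pattern had a promoter peak at 58.4% of 161 genes in WT (50.7 to 65.7) and 70.8% in cKO (63.4 to 77.3), and the other 223 genes at 75.8% (69.8 to 80.9) and 85.2% (79.9 to 89.3). Inside clusters, 135 genes with the pattern had 55.6% in WT (47.1 to 63.7) and 68.9% in cKO (60.6 to 76.1). The other 100 clustered genes had 82% (73.3 to 88.3) and 89% (81.4 to 93.7). Outside clusters, 26 genes with the pattern had 73.1% in WT (53.9 to 86.3) and 80.8% in cKO (62.1 to 91.5). The other 123 had 70.7% (62.2 to 78.0) and 82.1% (74.4 to 87.9), so those intervals overlapped in both lists. A promoter was called repeated when under 50% of its 50-base words occurred once in the genome. For this only the window at the 5′ end of the gene was used, while the peak counted may lie at another start. Only 10 of 32 repeated promoters had a peak in WT (31.3%, 18.0 to 48.6) and 11 in cKO (34.4%, 20.4 to 51.7), against 71.9% and 83.2% of the 352 unique ones. Genes with the KRAB pattern held 27 of the 32. Among unique promoters the KRAB shares were 66.4% in WT (58.1 to 73.9) and 80.6% in cKO (73.1 to 86.4), and those of the other genes 75.2% (69.1 to 80.5) and 84.9% (79.5 to 89.0), so the intervals overlapped in both lists. The part of read placement in the remaining difference was not tested.

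CpG content moved with the same split. The ratio of observed to expected CpG, in the promoter window at the 5′ end of the gene, had a median of 0.341 in genes with the KRAB pattern and 0.516 in the others. Promoters with a ratio of 0.6 or more had a peak at 87.2% of 86 genes in WT (78.5 to 92.7), and the others at 63.1% of 298 (57.5 to 68.4). Of genes with a promoter peak in the cKO list alone, 40 of 44 were under 0.6, as were 298 of all 384 genes. Such cKO-only promoters were 13.4% of those under 0.6 (10 to 17.8) and 4.65% of those above (1.82 to 11.4). Promoters with a peak in neither list were 23.5% and 8.14%. Promoters above 0.6 less often lacked a WT peak, so these shares do not compare how readily promoters without one gained a peak. Of the 44 genes, 22 had the KRAB pattern.

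**Figure D4:**
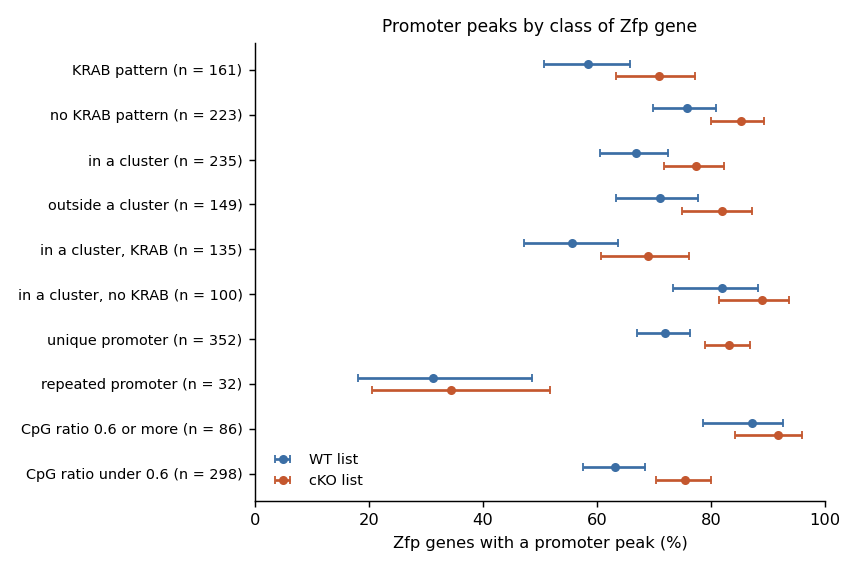
Share of *Zfp* genes with a promoter peak (%) in the WT list (blue) and cKO list (orange), for classes of gene with the number of genes in brackets; points are shares and bars are 95% Wilson intervals. Repeated promoters stand at 31.3% and 34.4%, while promoters with a CpG ratio of 0.6 or more stand at 87.2% and 91.9%.

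Clusters ranged from a promoter peak at no gene to one at every gene. Clustered genes had a promoter peak at 157 of 235 genes in WT (66.8%, 60.6 to 72.5) and 182 in cKO (77.4%, 71.7 to 82.3). Genes outside had one at 106 of 149 in WT (71.1%, 63.4 to 77.8) and 122 in cKO (81.9%, 74.9 to 87.2), so the intervals overlapped in both lists. In 7 of the 32 clusters every gene had a promoter peak in WT, and in 14 every gene had one in cKO. Clusters were set by distance alone, so a cluster can join unlike genes, such as *Zfp36* and its KRAB neighbours. The intervals count each gene as an independent unit, although genes of 1 cluster can be near copies, so they may be too narrow.

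At one end stood the chromosome 4 cluster from *Zfp990* to *Zfp933*, 18 genes over 2338 kb, all with the KRAB pattern. Of its genes, 1 had a promoter peak in either list. That gene was *Zfp933* at its edge, with a fold of 5.44 in WT and 6.38 in cKO, and with 100% unique 50-base words in its promoter. The median over the cluster was 24.4%, and 11 of the 18 promoters were repeated. The remaining 7 included *Zfp985* (79.1% unique) and *Zfp984* (76.7%), which had no peak either. Without this cluster, 71.9% of clustered genes had a promoter peak in WT (65.6 to 77.4) and 83.4% in cKO (77.9 to 87.8). A smaller cluster on chromosome 2, *Zfp968*, *Zfp965*, *Zfp969* and *Zfp966*, had a median of 0% unique 50-base words in its promoters and no peak in either list.

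At the other end stood several clusters of chromosome 7. All 15 genes from *Zfp84* to *Zfp146* had a promoter peak in cKO and 13 in WT, and 8 of the 21 cKO peaks of the cluster were gained, where 35.9% were over all genes. *Zfp146* had the highest cKO fold there, 15.4. This cluster holds *Zfp568*, a KRAB repressor needed in early development, with a promoter fold of 6.75 in WT and 9.98 in cKO. From *Zfp787* to *Zfp28*, 6 of 6 genes were open in both lists, led by *Zfp787* with a cKO fold of 34.7. From *Zfp553* to *Zfp646*, 9 of 10 were open in WT and 10 in cKO, led by *Zfp768*. The cluster of 14 genes from *Zfp180* to *Zfp526* was the only one of the 7 with at least 10 genes in which fewer promoters had a peak in cKO than in WT, 10 against 11, the difference being *Zfp93*. A cluster of 4 genes on the same chromosome, from *Zfp954* to *Zfp772*, had a promoter peak in WT at *Zfp954*, which was lost, and none in cKO.

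Among the 32 clusters, the most cKO-only promoters stood on chromosome 13, in a cluster of the largest size, 23 genes. A promoter peak in the cKO list alone was found at 11.5% of all *Zfp* genes and 6.74% of all autosomal protein-coding genes. Of 23 genes from *Zfp712* to *Zfp273*, 11 had a promoter peak in WT and 18 in cKO. The cKO list alone had one at 8, *Zfp708*, *Zfp455*, *Zfp457*, *Zfp429*, *Zfp729b*, *Zfp65*, *Zfp493* and *Zfp273*, and the WT list alone at *Zfp458*. These 8 had folds from 2.95 to 5.24. The cluster was weak in WT too: its median promoter fold there was 3.75, against 7.69 over all *Zfp* promoter peaks. None of its 23 promoters was repeated. On chromosome 17, the cluster of 23 genes from *Zfp160* to *Zfp13* had 15 open promoters in WT and 20 in cKO, and *Zfp53*, *Zfp983*, *Zfp760*, *Zfp820* and *Zfp994* had one in cKO alone. *Zfp54* had the highest cKO fold there, 13.4. From *Zfp141* to *Zfp819* on chromosome 7, 6 of 9 genes were open in WT and 9 in cKO, led by *Zfp715* with a cKO fold of 19.6.

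The strongest cKO promoters of the other clusters of 5 or more genes covered a wide range. *Zfp574* had a fold of 32.6, *Zfp868* 31.3, *Zfp446* 29.6, *Zfp653* 25.5, *Zfp524* 22.6 and *Zfp775* 20.5. Lower leaders were *Zfp81* with 13.9, *Zfp59* with 11.3, *Zfp266* with 10.5, *Zfp748* of the chromosome 13 cluster with 9.82 and *Zfp879* with 9.49.

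**Figure D5:**
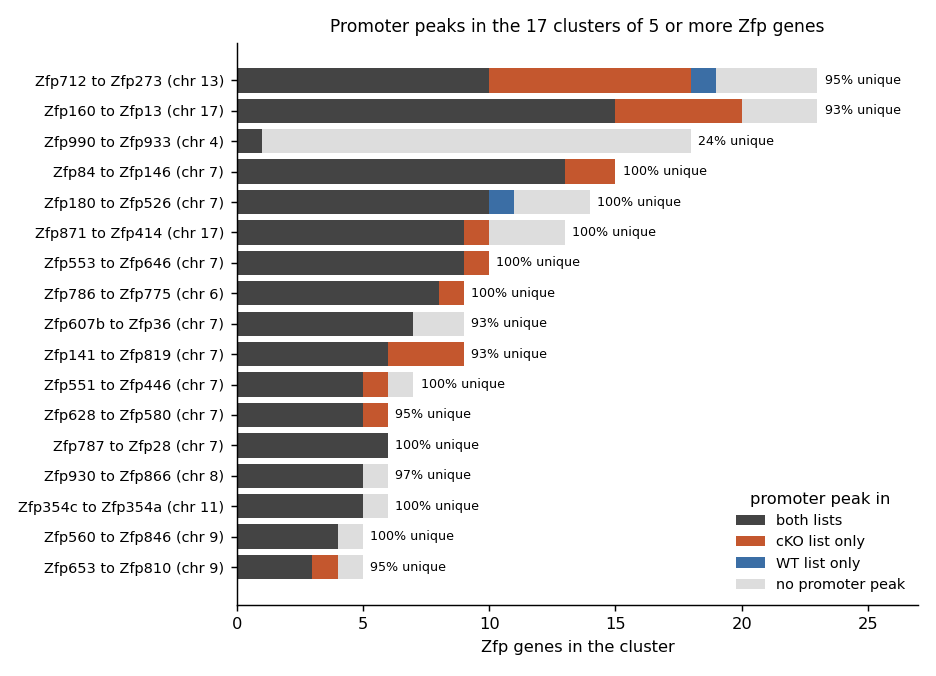
Number of *Zfp* genes in each of the 17 clusters of 5 or more, stacked by the list that held a promoter peak; rows are named by the first and last gene, and the text at right is the median share of unique 50-base words in the promoters. The chromosome 4 cluster has 1 open promoter of 18, the chromosome 13 cluster has 8 with a peak in the cKO list alone, and the *Zfp84* to *Zfp146* cluster has no gene without a promoter peak.

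Last exons, which carry all fingers in 293 of the 384 genes, seldom had a peak, at shares close to those of all genes. A last-exon peak was present at 16 of 384 *Zfp* genes in WT (4.17%, 2.58 to 6.66) and 30 in cKO (7.81%, 5.53 to 10.9), against 4.65% and 8.52% of all autosomal protein-coding genes. A peak that also reached a promoter was counted there alone, so last exons under wide promoter peaks are left out. The WT last-exon peaks of *Zfp574*, *Zfp768* and *Zfp580* overlapped cKO peaks, yet no cKO peak of these genes was counted in a last exon. The cKO list alone had one at 17 genes (4.43%, 2.78 to 6.97), and 4.8% of all genes had a last-exon peak in the cKO list alone. Of the 33 genes with one in either list, 5 had the KRAB pattern (15.2%), while 156 of the 351 genes without had it (44.4%). By class, 5 of 161 genes with the KRAB pattern had a last-exon peak in cKO (3.11%, 1.33 to 7.06) and 25 of 223 without it (11.2%, 7.71 to 16). The second class can include KRAB genes that the pattern misses. Every last-exon peak had at least 50% unique 50-base words.

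Where last exons were open, the peak usually touched coding sequence. Some such peaks lay mostly in untranslated sequence, as at *Zfp512b* in cKO, with 62 coding and 2720 untranslated bp. Of 32 cKO last-exon peaks, 25 covered at least some coding bases and 18 covered part of the finger array, and the other 7 lay in untranslated sequence alone. All 7 were gained, as were 19 of the 32, and over all genes 59.4% of last-exon peaks were gained. In WT, 3 of 17 last-exon peaks lay in untranslated sequence alone, and all 3 overlapped a cKO peak. Gained last-exon peaks had a median width of 504 bp, and those in both lists 1485 bp. The part of width in this count was not tested, and the coding split of all genes is not given here. The strongest last-exon peak was in both lists at *Zfp771*, with a fold of 15.9 in WT and 24.2 in cKO (cKO peak chr7:127253230-127255287, 651 bp of array). *Zfp316*, the one gene with the KRAB pattern and a last-exon peak in both lists, had 15.8 in WT and 20.5 in cKO and an open array of 1836 bp. *Zfp628*, a gene needed for male fertility, followed with 9.19 and 12.1, and its peak also covered a start of *Nat14*.

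The 19 gained last-exon peaks had folds from 2.45 to 4.75, and 10 were on 3 or more rows. The 2 highest differed in kind. In *Zfp41* a peak with a −log10 q of 10.2 (chr15:75623945-75624789) covered 845 bp of untranslated sequence. In *Zfp689*, a KRAB gene, the peak (8.77, chr7:127443647-127444581) covered 476 bp of the array and includes the unit printed above. *Zfp746*, which encodes the parkin substrate PARIS, had a gained peak with 7.38 that covered 231 bp of array, and *Zfp647* one with 6.71 over 1010 bp. The others named by rank, *Zfp362*, *Zfp646*, *Zfp346*, *Zfp251* and *Zfp956*, had values from 6.71 down to 3.68. *Zfp41* also had the most gained peaks of any *Zfp* gene, 4 of its 6 cKO peaks, shared by *Zfp382* with 4 of 5.

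At other positions the strongest gained peak of the family lay in *Zfp398*, with a fold of 8.35, 50 fragments at the summit and a −log10 q of 29.5 (chr6:47854672-47855045, plus strand gene). The peak was intronic in GENCODE, its centre 19164 bp from the nearest annotated start. RefSeq has a predicted transcript of *Zfp398* whose first exon, 47854554 to 47855457, holds the whole peak, which begins 118 bp after that start. All of its bases were soft-masked as repeats in the reference and 7.69% of its 50-base words were unique, and the part of read placement was not tested. The promoter of *Zfp398* itself was open in both lists.

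The next, in *Zfp91* (chr19:12786009-12786291, fold of 6.22, −log10 q of 17.5), was likewise 97.9% soft-masked, with 60% unique words. Its middle 150 bases on the minus strand are printed because they show the internal repeat. Capitals mark the 56 bases in stretches of at least 10 letters that occur more than once in it.
Zfp91 intron, chr19:12786075-12786224, minus strand: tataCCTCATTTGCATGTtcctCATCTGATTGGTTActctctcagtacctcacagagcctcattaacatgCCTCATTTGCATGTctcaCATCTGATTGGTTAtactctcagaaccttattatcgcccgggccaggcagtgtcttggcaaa

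Gained peaks in *Zfp286*, *Zfp831* and *Zfp536* (−log10 q of 11.0, 9.49 and 8.07) had only unique 50-base words. *Zfp536*, a neuronal regulator, and *Zfp831* had no promoter peak in either list. A gained peak between the promoter and last exon of *Zfp771* had 8.07 and 41.7% unique words. The median GC content was 52.7% in the 39 gained peaks at other positions and 56.7% in the 26 in both lists.

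The widest *Zfp* peak lay at *Zfp37*, a gene known for its expression in the testis. In the cKO list a single peak of 19496 bp (chr4:62220176-62239671) covered the 5′ end of the gene and part of its body, with a fold of 12.4. It had rank 25 by width among 28553 autosomal cKO peaks. In the WT list 4 separate peaks lay under it, among them 1 of 6466 bp. Of its 50-base words, 33.0% were unique, and 14.4% of those in the 6466 bp WT peak. The rest of the family had 4 peaks over 5000 bp, in cKO at *Zfp512b*, *Zfp574*, *Zfp651* and *Zfp628*.

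Lost peaks were few and weak. The 9 had −log10 q values of at most 5.71 and folds of at most 3.94, and 1 of them was on 3 or more rows. That one, in *Zfp101* (chr17:33367772-33368989), was fully soft-masked with 6.38% unique words. The 3 lost promoter peaks, at *Zfp458*, *Zfp954* and *Zfp93*, had 19, 17 and 16 fragments at the summit, where the lowest of the list had 13. Lost peaks at other positions of *Zfp385c*, *Zfp654* and *Zfp827* had 18, 17 and 16, and that of *Zfp654* held no unique word among those sampled. In the last exon of *Zfp251* the lists differed by a small shift: the lost peak (chr15:76853218-76853469) lay next to a gained one (chr15:76853529-76854032). *Zfp251* had another lost peak, at other positions (chr15:76869781-76870041), with a −log10 q of 3.23.

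Genes of known function were examined as fixed groups. All 6 repressors of imprints and retroelements had a promoter peak in cKO and 5 in WT. *Zfp57* and *Zfp445*, which protect imprinted methylation, had folds of 5.44 and 6.19 in WT and 6.87 and 11.1 in cKO. *Zfp568* is given above, and *Zfp809*, which silences retroviral DNA, had 4.50 and 11.3. *Zfp932* had 4.13 and 6.55. *Zfp708*, a retroelement binder of the chromosome 13 cluster, had no WT peak and a gained peak with a fold of 4.09.

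All 3 mRNA decay factors had a cKO promoter peak. *Zfp36* and *Zfp36l2* were open in both lists, with folds of 7.69 and 9.38 in WT and 10.3 and 17 in cKO. Of 11 regulators outside the KRAB family, *Zfp148*, *Zfp207*, *Zfp217*, *Zfp281*, *Zfp292* and *Zfp335* were open at the promoter in both lists. *Zfp335*, required in neural progenitors, had the highest folds of these, 13.5 and 21.3. *Zfp143*, *Zfp423*, *Zfp462* and *Zfp536* had no promoter peak in either list. *Zfp521*, a regulator of neural and blood progenitors, had no WT peak and 3 gained peaks near its start, with −log10 q values of 8.07, 7.38 and 4.24, the last at the promoter.

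The 4 male germ cell genes found, *Zfp37*, *Zfp59*, *Zfp318* and *Zfp628*, had promoter peaks in both lists. *Zfp318*, which is expressed in spermatogenic cells, led with folds of 16.5 in WT and 23.6 in cKO, percentiles 92.3 and 89.4 of all promoter peaks. The folds of the other 3 ran from 6.75 to 9.19 in WT and from 11.3 to 13.6 in cKO.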

How the data were processed

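ATAC-seq libraries of pachytene spermatocytes from 4 *Arid1a* WT and 4 *Arid1a* cKO samples were trimmed with Trim Galore and aligned to mm10 with bowtie2 by the authors, who removed duplicates and mitochondrial reads, called peaks per library with MACS2 (q of 0.05, without a local background estimate), dropped blacklisted regions and overlapped the replicates to give 1 deposited list per genotype. No mapping quality filter is stated. The deposited fold enrichment is a ratio of summit pileup to the library background, with 1 added to each. The deposited −log10 q values are those of MACS2. The deposited summit offsets, another column, were not used. Which library supplied these values is not given in the sources used here.

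Rows were collapsed by peak name, from the lowest start to the highest end. Genes came from GENCODE vM21 on the mm10 assembly and promoter sequences from RefSeq on GRCm38.p6 (318 of 384 *Zfp* genes and 15703 of 20807 autosomal protein-coding genes matched by symbol). Overlap meant at least 1 bp. Uniqueness is the share of 50-base words, taken every 25 bases, that occur once in the genome on either strand. Analyses used Python 3.11.15, numpy 2.4.6 and scipy 1.17.1, and the assignment of peaks to positions was tested on simulated peaks. Named peaks were those of highest fold or −log10 q in each class (8 WT promoters, up to 10 gained promoter, 10 gained last-exon, 6 other gained and 8 lost peaks), the strongest cKO promoter of each cluster of 5 or more genes, and fixed groups. Genes named outside this rule, such as those with the most gained peaks or the widest peaks, were chosen after their values were seen. Members, groups and classes were chosen with earlier results of these data known. *Zfp29*, listed with the male germ cell genes, was not matched in the annotation.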

Additional observations from a re-analysis of the deposited data

How the results depend on the processing

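Of 105 values recomputed under alternatives for 13 results, 70 stayed within the interval of the value reported, or for a count within 1.5 times of it, and 35 moved. Counting every row as a unit gave 921 WT and 1219 cKO *Zfp* peaks. The gained share of *Zfp* peaks was 15.0% where the −log10 q was 5 or more, 6.21% at 10 or more, 19.4% on 3 or more rows, and 12.2% with the cKO list shortened by −log10 q to the length of the WT list. The lost share under the same settings was 0.719%, 0%, 0.364% and 5.81%. Genes with a last-exon peak in WT numbered 10 at a −log10 q of at least 5, 7 at 10 or more and 10 with promoters of 3000 bp on either side. In cKO they numbered 19, 13 and, with lists of equal length, 16. The cKO share of clustered genes with a promoter peak was 65.5% at a −log10 q of 10 or more, 70.6% with lists of equal length, 59.1% by peak centre and 71.5% with the 5′ end of the gene as the only promoter. For genes outside clusters it was 73.8% at 10 or more, 65.1% by peak centre and 73.8% with the 5′ end alone. The stricter settings hold fewer peaks by construction, and the cause of the other shifts was not tested. No paired analysis was possible because each genotype has 1 list, and for the same reason no replicate could be left out. Peaks under 13 or 14 fragments at the summit are not in the lists, so a missing peak is not closed chromatin.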
